A study of Mus musculus with 6 samples.

Results

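The genes described here are 10 genes of the actin cytoskeleton, taken by their symbols out of the 55809 genes counted in HC11 cells, a line of mouse mammary epithelial cells. They are the cytoplasmic actins Actb and Actg1, the transcription factor gene Srf and 7 genes of actin-binding or adhesion proteins that are known or proposed targets of SRF (Vcl, Flna, Tpm1, Tpm4, Myh9, Cnn2 and Zyx). All 10 passed the filter on low counts, which kept 15733 genes. The libraries came from HC11 cells in medium with BMP7 (n = 3) or in medium without BMP7 (Ctrl, n = 3), with no other difference in genotype or agent named in the labels. By the methods, such cells were starved for 16 h before BMP7 was added at 50 ng/mL for either 30 min or 6 h, and which of these durations the libraries had is not given in the sources used here. The labels name no separate cultures, so the p-values measure the spread between these libraries, which may be technical. The BMP7 libraries are called 1, 3 and 4 after the numbers of their columns. The question asked here was whether a higher level of Actb in the BMP7 cells went with a wider change in genes of the actin cytoskeleton.

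Actin monomers assemble into filaments that tropomyosins coat, that non-muscle myosin II pulls on, that filamins and alpha-actinins crosslink, and that vinculin and zyxin serve at focal adhesions, where the cell holds its matrix. Serum response factor (SRF) binds a DNA element called the CArG box, and many cytoskeletal genes, Actb and Srf itself among them, are textbook SRF targets. SRF works with cofactors of the MRTF family, which are held back by free actin monomers, or with ternary complex factors of the Elk family, which act on immediate-early genes such as Fos and Egr1. In the mammary gland the contractile form of this machinery marks the myoepithelial cells.

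Promoter sequences of the members are shown first, because the CArG box is the feature by which SRF recognises its targets. RefSeq promoter windows on GRCm38.p6, running from 250 bases before to 50 bases after the gene start, were matched for 9 of the 10 members, Actb being the one unmatched. The letters CC, any 6 of A and T, and GG were searched; the pattern is its own reverse complement, so 1 pass covers both strands. It was found in 4 of the 9 members, Actg1, Srf, Vcl and Cnn2, against 1.81% of the 27025 genes with a promoter entry (1.63% of all 32851 promoters). Srf and known or proposed SRF targets make up most of the members, so this difference is no separate result. The 100-base stretches that hold the boxes are printed below with the CArG boxes in capitals, read along the strand of the gene. The Actg1 stretch is chr11:120348531-120348630 (minus strand), the Srf stretch chr17:46556180-46556279 (minus strand), the Vcl stretch chr14:20929148-20929247 (plus strand) and the Cnn2 stretch chr10:79988499-79988598 (plus strand).
Actg1: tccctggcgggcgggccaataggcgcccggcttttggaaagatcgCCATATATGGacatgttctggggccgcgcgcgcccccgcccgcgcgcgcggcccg
Srf: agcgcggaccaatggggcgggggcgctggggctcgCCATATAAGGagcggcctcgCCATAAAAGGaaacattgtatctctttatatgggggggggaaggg
Vcl: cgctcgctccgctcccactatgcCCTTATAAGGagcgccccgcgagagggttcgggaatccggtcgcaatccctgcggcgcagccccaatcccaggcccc
Cnn2: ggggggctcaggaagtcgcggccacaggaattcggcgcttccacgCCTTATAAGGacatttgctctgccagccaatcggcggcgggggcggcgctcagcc

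Srf carried 2 boxes, whose first bases lay at -82 and -62 from its start. The single boxes of Actg1, Cnn2 and Vcl began at -90, -56 and -227. The letters were not in the windows of Flna, Tpm1, Tpm4, Myh9 and Zyx.

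Counts were compared with edgeR's quasi-likelihood test across all genes passing the filter, and a gene was called where its Benjamini-Hochberg adjusted p was under 0.05 and its fold change over 1.2. Levels are in CPM, counts scaled to the effective library size. Of the 10 members, 3 were higher in the BMP7 libraries (Zyx, Srf and Actb), 1 was lower (Flna) and 6 were not called. Over all genes tested the same rule called 5.99% higher and 5.38% lower, or 11.4% in either direction. By the adjusted p alone 3 members were higher and 2 were lower (Flna and Cnn2), against 7.33% and 6.42% of all genes. The groups did not overlap in 7 members, 4 above and 3 below, against 14.8% above and 15.1% below of all genes. The median log2 fold change of the members was 0.03, and that of all genes tested was -0.01. With upper-quartile scaling the split of the members was 2 higher and 3 lower. When the test was made against a fold of 1.2 itself, with edgeR's glmTreat, 0 of the 10 members passed, and 2 of them, Flna and Zyx, had an unadjusted p under 0.05. DESeq2 called 3 higher and 2 lower.

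**Figure D1:**
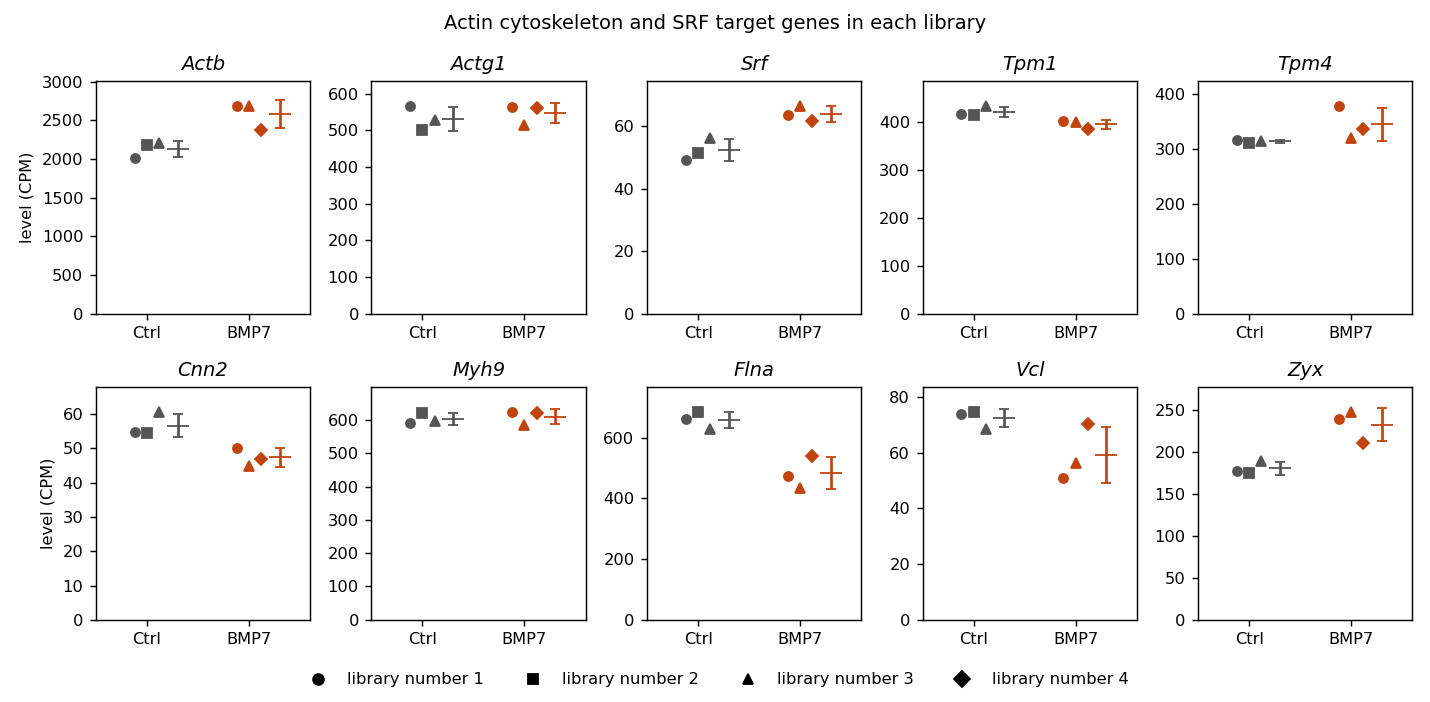
Level of each of the 10 genes in CPM (vertical axis, from 0) in the 3 Ctrl and the 3 BMP7 libraries, with the mean and SD of each group beside the points and the symbol giving the library's column number. All 3 BMP7 libraries lie above the Ctrl libraries for Actb, Srf, Tpm4 and Zyx, and below them for Flna, Tpm1 and Cnn2. The groups overlap for Actg1, Vcl and Myh9.

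The libraries held between 14607938 (BMP7 1) and 23748970 (BMP7 3) counted fragments. Id1, a direct target of BMP receptor signalling, was higher in the BMP7 libraries by 4.28 on the log2 scale in the edgeR test (adjusted p = 3.25e-15), in the direction of the label. Epithelial markers were present in both groups, and their sums, though not each marker, differed from the Ctrl in all 3 BMP7 libraries. The summed level of 9 basal and myoepithelial markers was 6548 to 6683 CPM in the Ctrl and 7508 to 8940.3 CPM in the BMP7 libraries, with 4 of the 7 tested called higher and 0 lower, Krt14 among them (log2 fold change 0.43, adjusted p = 0.00109 in edgeR's test). That of 8 luminal markers was 1764 to 1784 CPM in the Ctrl and 1418 to 1445 CPM in the BMP7 libraries, with 3 of the 7 tested called lower and 0 higher, Epcam among them (log2 fold change -0.42, adjusted p = 0.000120). The sums rested mostly on Krt14 and Krt5 in the basal list and on Cdh1 and Epcam in the luminal list. Krt5 was not called (log2 fold change -0.03, adjusted p = 0.807 in edgeR's test), nor was Krt8 (0.09, adjusted p = 0.479). Acta2, a basal marker, was at -1.23 without a call. The shares called over all genes tested were 5.99% higher and 5.38% lower. BMP7 1 stood apart from BMP7 3 and 4 in the summed adipocyte and macrophage markers. The summed level of 10 adipocyte markers was 36.5 to 48.2 CPM in the Ctrl libraries, 69.1 CPM in BMP7 1 and 134.05 and 120.03 CPM in BMP7 3 and 4, and 8 of the 8 tested were called higher. The summed level of 10 macrophage markers was 51.8 to 56.1 CPM in the Ctrl libraries, 52.3 CPM in BMP7 1 and no more than 29.0 CPM in BMP7 3 and 4, and 3 of the 7 tested were called lower. Of the adipocyte markers Pparg, a defining one, was at no more than 3 counts in each library. Of the macrophage markers Cd68 went the other way without a call, at 10.9 to 11.6 CPM in the Ctrl and 12.4 to 15.6 CPM in the BMP7 libraries. The fibroblast markers summed to 111.9 to 122.9 CPM in the Ctrl and 98.8, 114.1 and 112.5 CPM in BMP7 1, 3 and 4. Of the 5 tested, 2 were called higher and 1 lower. The endothelial markers summed to 13.3 to 15.9 CPM in the Ctrl and 24.0 to 26.2 CPM in the BMP7 libraries. In bulk RNA fewer cells of a type and less RNA per cell cannot be told apart. The part of the basal, luminal, adipocyte, macrophage, fibroblast and endothelial markers in the results on the actin cytoskeleton was not tested. The results are therefore also given without BMP7 1 and with BMP7 1 alone, where that changes a call.

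Actb, which encodes beta-actin, the main actin of non-muscle cells, had the highest level per kilobase of exon among the members. It lies on chromosome 5, from 142888870 to 142892509 on the minus strand, in the coordinates of the deposited counts. Its level was 2017, 2180 and 2209 CPM in Ctrl 1, 2 and 3, and 2684, 2686 and 2371 CPM in BMP7 1, 3 and 4. Each BMP7 library lay above each Ctrl library, with BMP7 4 nearest to the Ctrl range. The means were 2136 ± 103.5 and 2580 ± 181 CPM (SD, n = 3 each), a difference of 20.8%. The log2 fold change was 0.27 ± 0.07 (SE), with a 95% interval of 0.12 to 0.42 and an adjusted p of 0.0153 in edgeR's test. The exact permutation test of 3 libraries against 3 gave a two-sided p of 0.1, the smallest it can give.

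The size of the Actb difference sat close to the fold threshold. By log2 fold change Actb ranked 2035 of the 15733 genes tested, and by its gain in CPM, 445 on average, it ranked 16. Its call was lost without Ctrl 1 (log2 fold change 0.23, adjusted p = 0.0765 in edgeR's test) and without Ctrl 2 (0.29, adjusted p = 0.0537). Without BMP7 1 or BMP7 3 the adjusted p stayed under 0.05 while the log2 fold change, 0.24 and 0.25, was under the fold of 1.2. With BMP7 1 alone it was 0.33 (adjusted p = 0.0135).

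Actg1 encodes gamma-actin, the other cytoplasmic actin. It was at 566, 499.5 and 527 CPM in Ctrl 1, 2 and 3, and at 563, 516 and 562 CPM in BMP7 1, 3 and 4. The groups overlapped throughout their range. The log2 fold change was 0.04 ± 0.07 (SE), with a 95% interval of -0.10 to 0.18 and an adjusted p of 0.747 in edgeR's test. Its sign turned without Ctrl 2, to -0.0005. Per kilobase of exon, Actb was at 797 CPM and Actg1 at 199.8 CPM in the Ctrl libraries.

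The Actg1 level rests on only part of its fragments. Fragments that map to several places were left out of the counts, and 57.8% of the Actg1 transcript is matched at 95% identity or more by 6 other genes, the closest a processed pseudogene, Gm12715 (chromosome 4, 103420599 to 103421726). Gm12715 itself held more fragments than Actg1, at 1263, 1209 and 1287 CPM in Ctrl 1, 2 and 3 and 1335, 1381 and 1358 CPM in BMP7 1, 3 and 4. Its BMP7 libraries lay above its Ctrl libraries, with a log2 fold change of 0.12 ± 0.06 (SE) and an adjusted p of 0.241 in edgeR's test. The counts do not show how many of the fragments given to Gm12715 came from Actg1. With the counts of Gm12715 added to Actg1, a choice made after seeing the data, the log2 fold change of the sum was 0.09 (adjusted p = 0.360), and the sum was at 1709 to 1830 CPM in the Ctrl and 1896 to 1920 CPM in the BMP7 libraries. No such copy was found for Actb.

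The ratio of Actb to Actg1 was 3.56, 4.36 and 4.19 in Ctrl 1, 2 and 3, and 4.77, 5.21 and 4.22 in BMP7 1, 3 and 4. The groups overlapped, with BMP7 4 among the Ctrl libraries, and the exact permutation test gave a two-sided p of 0.2. Taken against Actg1 and Gm12715 together, Actb was at 1.10, 1.28 and 1.22 in the Ctrl libraries and 1.41, 1.42 and 1.24 in the BMP7 libraries, again with an overlap and an exact permutation p of 0.2. The summed level of Actb and Actg1, most of it Actb, was 2584 to 2737 CPM in the Ctrl and 2933 to 3247 CPM in the BMP7 libraries. That these groups did not overlap follows largely from Actb, so the sum is no separate test.

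**Figure D2:**
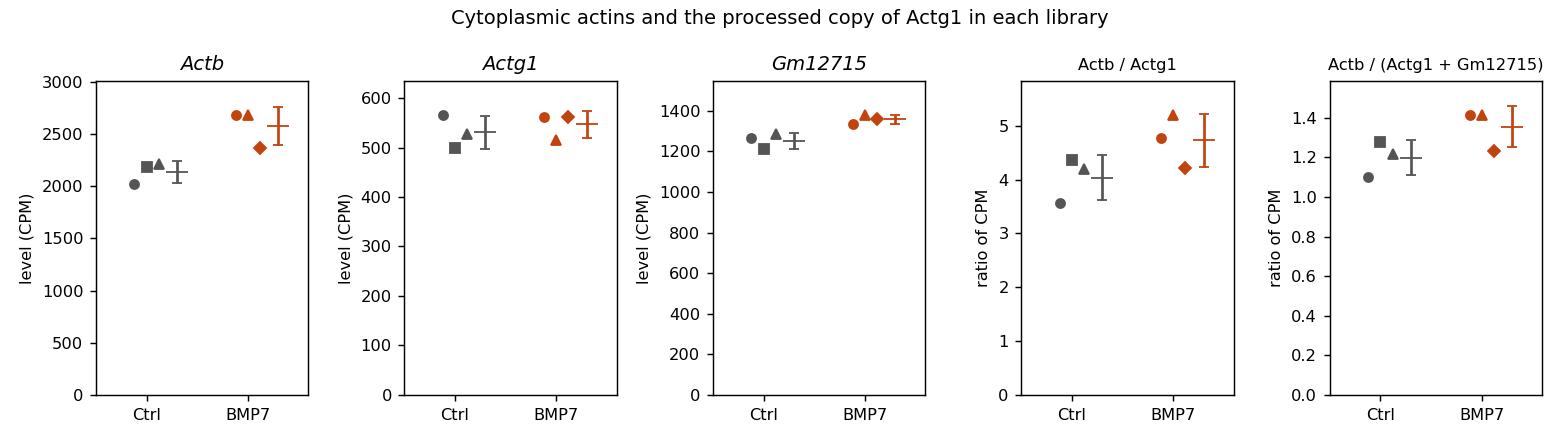
Levels of Actb, Actg1 and Gm12715, a processed pseudogene that matches Actg1, in CPM, and the ratios of Actb to Actg1 and to the sum of Actg1 and Gm12715, in each library with the group mean and SD. The BMP7 libraries lie above the Ctrl libraries for Actb and Gm12715, and the groups overlap in Actg1 and in both ratios.

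Of the muscle actins, which the myoepithelial and smooth muscle forms of the cytoskeleton use, Acta2 was at 0.530, 0.737 and 0.538 CPM in Ctrl 1, 2 and 3 and at 0.139, 0.267 and 0.331 CPM in BMP7 1, 3 and 4. The groups did not overlap, and the log2 fold change of -1.23 ± 0.50 (SE) had an adjusted p of 0.120 in edgeR's test. Acta1, the skeletal muscle actin, was at 0.196 to 0.771 CPM in the Ctrl and 0.418 to 1.07 CPM in the BMP7 libraries and was not called (log2 fold change 0.85, adjusted p = 0.301). Actc1 and Actg2 did not pass the filter, nor did Cnn1 and Tagln, which are markers of contractile cells, and Myl9, the smooth muscle myosin light chain, had no count in any library. Other contractile markers differed among themselves. Oxtr, the oxytocin receptor gene, was at 9.39 to 14.0 CPM in the Ctrl and 33.6 to 39.0 CPM in the BMP7 libraries and was called (log2 fold change 1.58, adjusted p = 1.35e-07 in edgeR's test). Myh11, the smooth muscle myosin heavy chain, was at 0.144 to 0.492 CPM against 0.711 to 0.881 CPM. It was not called (log2 fold change 1.52, adjusted p = 0.0513 in edgeR's test). Smtn, the gene of smoothelin, was at 232 to 249 CPM against 271 to 283 CPM. It was not called either (0.22, adjusted p = 0.0180, under the fold threshold). Mylk and Synpo2 had overlapping groups and no call, with log2 fold changes of -0.12 and -0.14.

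Srf, on chromosome 17 from 46859255 to 46867101 on the minus strand, was at 49.2, 51.5 and 56.3 CPM in Ctrl 1, 2 and 3, and at 63.4, 66.4 and 61.6 CPM in BMP7 1, 3 and 4. Every BMP7 library was above every Ctrl library. Its log2 fold change was 0.29 ± 0.07 (SE), with a 95% interval of 0.14 to 0.44 and an adjusted p of 0.0109 in edgeR's test. The call was lost without Ctrl 1 (log2 fold change 0.24, adjusted p = 0.0668), without Ctrl 2 (0.28, adjusted p = 0.0595) and without BMP7 3 (0.26, adjusted p = 0.0541), and with BMP7 1 alone (0.28, adjusted p = 0.0986).

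The genes that work with SRF moved in both directions. Of 8 tested besides Srf, 1 was called higher and 3 were called lower, against 5.99% and 5.38% of all genes tested. Elk3, a ternary complex factor, was at 86.5 to 97.8 CPM in the Ctrl and 107 to 115 CPM in the BMP7 libraries, and rose by 0.30 ± 0.06 (SE) on the log2 scale (adjusted p = 0.00456 in edgeR's test). Mical2, whose product oxidises nuclear actin and thereby favours MRTF, fell from 32.6 to 37.3 CPM in the Ctrl to 15.8 to 18.8 CPM in the BMP7 libraries, with a log2 fold change of -1.01 ± 0.09 (SE).

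Scai, a repressor of the MRTF and SRF complex, was at 41.9 to 44.7 CPM in the Ctrl and 30.1 to 38.5 CPM in the BMP7 libraries and fell by 0.33 on the log2 scale (adjusted p = 0.0148), a call lost without Ctrl 1, Ctrl 2, BMP7 1 or BMP7 3. Fhl2, a LIM-domain cofactor, fell by 0.63 on the log2 scale (adjusted p = 0.0108), and its call was lost without Ctrl 2 and with BMP7 1 alone. The MRTF genes themselves were not called. Mrtfa had a log2 fold change of 0.20, under the fold threshold, with an adjusted p of 0.0465 in edgeR's test, and Mrtfb had one of -0.09 (adjusted p = 0.449). Elk4 was at -0.25, also under the fold threshold (adjusted p = 0.0253), and Elk1 at -0.08 (adjusted p = 0.569).

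Tpm1 and Tpm4 encode tropomyosins, which coat the filament and set which other proteins reach it. Tpm1 was at 415, 415 and 433 CPM in Ctrl 1, 2 and 3, and at 401, 398 and 384 CPM in BMP7 1, 3 and 4. Its groups did not overlap, with a log2 fold change of -0.09 ± 0.06 (SE) and an adjusted p of 0.334 in edgeR's test. Tpm4 was at 316, 310.2 and 315 CPM in the Ctrl libraries and at 379, 319.7 and 336 CPM in BMP7 1, 3 and 4.

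The Tpm4 groups did not overlap either, but the difference rested largely on BMP7 1. The log2 fold change of 0.14 ± 0.07 (SE; adjusted p = 0.213) was 0.06 without BMP7 1 and 0.27 with BMP7 1 alone (adjusted p = 0.0251 in edgeR's test). A processed pseudogene, Gm7809, matches 34.8% of the Tpm4 transcript and was itself called higher (log2 fold change 0.26, adjusted p = 0.0261). With its counts added to Tpm4 the log2 fold change was 0.17 (adjusted p = 0.0883).

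Cnn2 encodes calponin 2, an actin-binding protein of non-muscle and smooth muscle cells. It was at 54.8, 54.5 and 60.6 CPM in Ctrl 1, 2 and 3, and at 50.2, 44.9 and 47.0 CPM in BMP7 1, 3 and 4. The BMP7 libraries lay below the Ctrl libraries, and the log2 fold change was -0.26 ± 0.07 (SE). Its adjusted p of 0.0226 in edgeR's test passed the threshold, and its fold fell just short of 1.2. It was called in 6 of the 14 alternative fits, which do not include glmTreat or the adjusted p alone, among them without BMP7 1 (log2 fold change -0.30, adjusted p = 0.0171).

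Among the other tropomyosin, tropomodulin and calponin genes, 2 of the 8 tested were called higher and 0 lower. The shares over all genes tested were 5.99% and 5.38%. Tpm2, another tropomyosin, had a log2 fold change of 0.27 with overlapping groups (144.95 to 170.1 CPM against 168 to 214 CPM), and its call was lost without any one of 5 of the 6 libraries. Lmod1, a filament nucleator of smooth muscle, was near its limit of detection, at 0.289 to 0.440 CPM in the Ctrl and 0.906 to 1.16 CPM in the BMP7 libraries, and its log2 fold change of 1.49 ± 0.41 (SE; adjusted p = 0.0210 in edgeR's test) lost its call in 7 of the 13 alternative fits that tested it, that with BMP7 1 alone among them.

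Myh9 encodes the heavy chain of non-muscle myosin IIA, the motor of stress fibres. It was at 589, 622 and 598 CPM in Ctrl 1, 2 and 3, and at 624, 583 and 620.4 CPM in BMP7 1, 3 and 4. The groups overlapped, and the log2 fold change was 0.01 ± 0.06 (SE), with a 95% interval of -0.11 to 0.14. Of 10 other genes of myosin II and its regulators, 2 were called higher and 0 lower, against 5.99% and 5.38% of all genes tested. Myh14, the heavy chain of non-muscle myosin IIC, was at 217 to 235 CPM in the Ctrl and 273 to 288 CPM in the BMP7 libraries (log2 fold change 0.29 ± 0.06 (SE), adjusted p = 0.00290), and lost its call without Ctrl 2. Myl12a, a regulatory light chain, was at 67.3 to 69.2 CPM against 81.0 to 101 CPM and had a log2 fold change of 0.39 ± 0.08 (SE), with 33.6% of its transcript matched by 2 other genes, Myl12b the closest.

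Flna encodes filamin A, which crosslinks filaments into a loose network and ties them to the membrane. It lies on chromosome X, from 73267067 to 73293426 on the minus strand. Its level was 659.6, 684 and 629 CPM in Ctrl 1, 2 and 3, and 473, 435 and 539.6 CPM in BMP7 1, 3 and 4. All BMP7 libraries were below all Ctrl libraries, with BMP7 4 the highest of them. Its log2 fold change was -0.45 ± 0.07 (SE), with a 95% interval of -0.60 to -0.29 and an adjusted p of 0.000567 in edgeR's test. It was not called with glmTreat, and was called lower in each of the 14 other alternative fits, with log2 fold changes between -0.53 and -0.37.

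The other crosslinkers and membrane linkers moved mostly the other way where they moved. Of 15 tested, 3 were called higher and 1 lower, against 5.99% and 5.38% of all genes tested. Palld, which encodes palladin, an organiser of stress fibres, was at 244 to 272 CPM in the Ctrl and 411 to 470 CPM in the BMP7 libraries, a log2 fold change of 0.74 ± 0.07 (SE). Actn4, which encodes alpha-actinin 4, a bundling protein of non-muscle cells, was at 769, 743 and 764 CPM in Ctrl 1, 2 and 3 and at 1128, 1200 and 1128 CPM in BMP7 1, 3 and 4.

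The Actn4 groups lay far apart against their spread, with a log2 fold change of 0.60 ± 0.06 (SE). Actn1, for alpha-actinin 1, was at 242 to 269 CPM against 319 to 375 CPM (0.40 ± 0.07). These 3 genes kept their calls without BMP7 1 and with BMP7 1 alone. The ratio of Actn4 to Flna was 1.09 to 1.21 in the Ctrl and 2.09 to 2.76 in the BMP7 libraries. Since Actn4 lay above and Flna below in every BMP7 library, the ratio had to separate the groups and is no further test. Lcp1, the plastin of white blood cells, was at 9.29 to 10.2 CPM in the Ctrl libraries and at 7.60, 1.42 and 2.31 CPM in BMP7 1, 3 and 4. The summed macrophage markers were likewise lowest in BMP7 3 and 4. The Lcp1 log2 fold change of -1.47 was -0.35 with BMP7 1 alone, where its call was lost.

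Vcl encodes vinculin, which links integrin adhesions to filaments. It was at 74.1, 74.6 and 68.6 CPM in Ctrl 1, 2 and 3, and at 50.9, 56.4 and 70.5 CPM in BMP7 1, 3 and 4. BMP7 4 lay within the Ctrl range and the other BMP7 libraries below it. The log2 fold change was -0.29 ± 0.09 (SE), with a 95% interval of -0.49 to -0.09 and an adjusted p of 0.0526 in edgeR's test. Vcl was called lower in 6 of the 14 alternative fits, among them DESeq2 (-0.28, adjusted p = 0.0450), the fit with BMP7 1 alone (-0.51, adjusted p = 0.00277) and the fit without BMP7 4 (-0.43, adjusted p = 0.00128). Of its exon bases 25.5% are shared with Ap3m1 on the opposite strand, and since strand was not used, fragments there were given to neither gene.

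Zyx encodes zyxin, a LIM-domain protein of focal adhesions and strained stress fibres. It lies on chromosome 6, from 42326564 to 42337147 on the plus strand. It was at 178, 175 and 189 CPM in Ctrl 1, 2 and 3, and at 239.8, 248 and 211 CPM in BMP7 1, 3 and 4. Each BMP7 library was above each Ctrl library, BMP7 4 being the lowest of them. Its log2 fold change was 0.37 ± 0.07 (SE), with a 95% interval of 0.22 to 0.51 and an adjusted p of 0.00134 in edgeR's test. It was not called with glmTreat, and was called higher in each of the 14 other alternative fits, with log2 fold changes between 0.32 and 0.43. The ratio of Zyx to Vcl was 2.35 to 2.76 in the Ctrl and 2.99 to 4.71 in the BMP7 libraries (exact permutation p = 0.1, the smallest possible). It joins a gene called higher to one whose mean was lower, so it adds little to their own values.

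**Figure D3:**
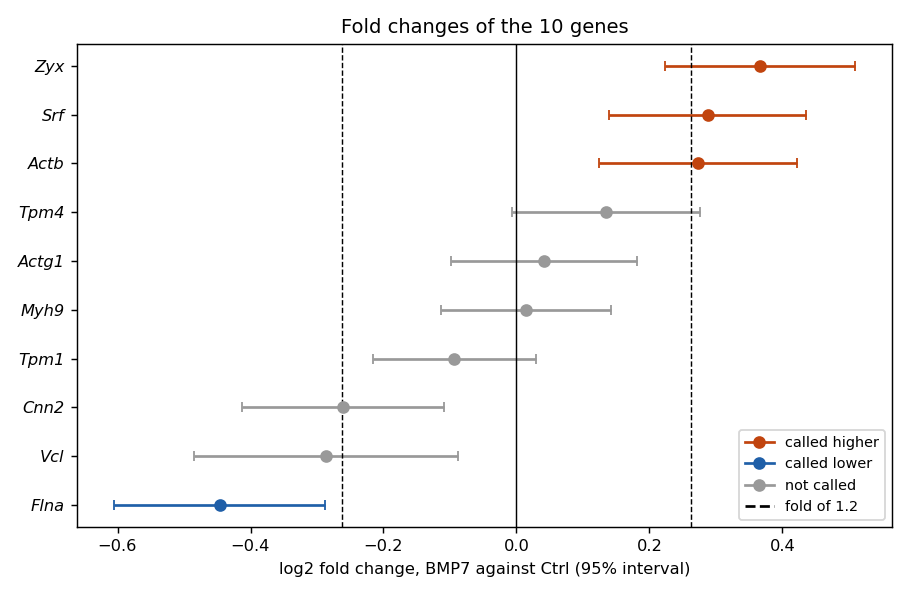
Log2 fold change of each of the 10 genes, BMP7 against Ctrl (horizontal axis), with its 95% interval and the calls in colour; the dashed lines mark a fold of 1.2. Zyx, Srf and Actb are called higher and Flna lower, and the intervals of Tpm4, Actg1, Myh9 and Tpm1 cross 0.

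The remaining 21 genes of the focal adhesion plaque held 2 called higher and 1 called lower. These are 9.52% and 4.76%, against 5.99% and 5.38% of all genes tested. By the adjusted p alone 2 were higher and 3 lower, against 7.33% and 6.42% of all genes tested. The BMP7 libraries lay all above the Ctrl in 3 genes and all below in 7, against 14.8% and 15.1% of all genes tested. The log2 fold change was above 0 in 8 and below 0 in 13. Ptk2, the gene of focal adhesion kinase, was at 71.3 to 75.5 CPM in the Ctrl and 102 to 109 CPM in the BMP7 libraries, a log2 fold change of 0.53 ± 0.06 (SE). Pdlim7, a LIM protein of stress fibres, had a log2 fold change of 0.27 with overlapping groups, and its call was lost without any one of 5 of the 6 libraries. Tns3, the gene of tensin 3, which links integrins to actin, was at 201 to 238 CPM against 149 to 174 CPM and fell by 0.45 on the log2 scale. The median of these 21 genes was -0.08.

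Genes of filament assembly and turnover were the largest of the lists. Of 42 tested, 1 was called higher and 2 were called lower, or 2.38% and 4.76%, against 5.99% and 5.38% of all genes tested. By the adjusted p alone 5 were higher and 3 lower. Pfn2, a profilin that delivers monomers to growing filaments, had a log2 fold change of 0.47 ± 0.10 (SE), at 11.8 to 13.1 CPM in the Ctrl and 16.7 to 18.6 CPM in the BMP7 libraries, and its call was lost with BMP7 1 alone (adjusted p = 0.0834). Fhod1, a formin, fell by 0.59 on the log2 scale. Gsn, the gene of the severing protein gelsolin, was at 305 to 340.4 CPM in the Ctrl and 253 to 281 CPM in the BMP7 libraries and fell by 0.28, a call lost without Ctrl 1 or BMP7 3. The median of the 42 was 0.003.

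Over all 127 genes of the wider actin cytoskeleton besides the members, 117 were tested, 13 were called higher and 8 lower. These are 11.1% and 6.84%, against 5.99% and 5.38% of all genes tested. Their median log2 fold change was 0.02, with 62 above and 55 below 0, and the groups did not overlap in 55 of the 117 genes, 29 above and 26 below, against 29.8% of all genes tested. Without BMP7 1 the counts were 11 higher and 7 lower, and with BMP7 1 alone 13 and 9. With upper-quartile scaling 10 were higher and 13 lower, a shift shared by all genes, of which this scaling called 870 higher and 983 lower. Beside the Actb difference, the genes of the actin cytoskeleton thus held calls in both directions with a median near 0.

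**Figure D4:**
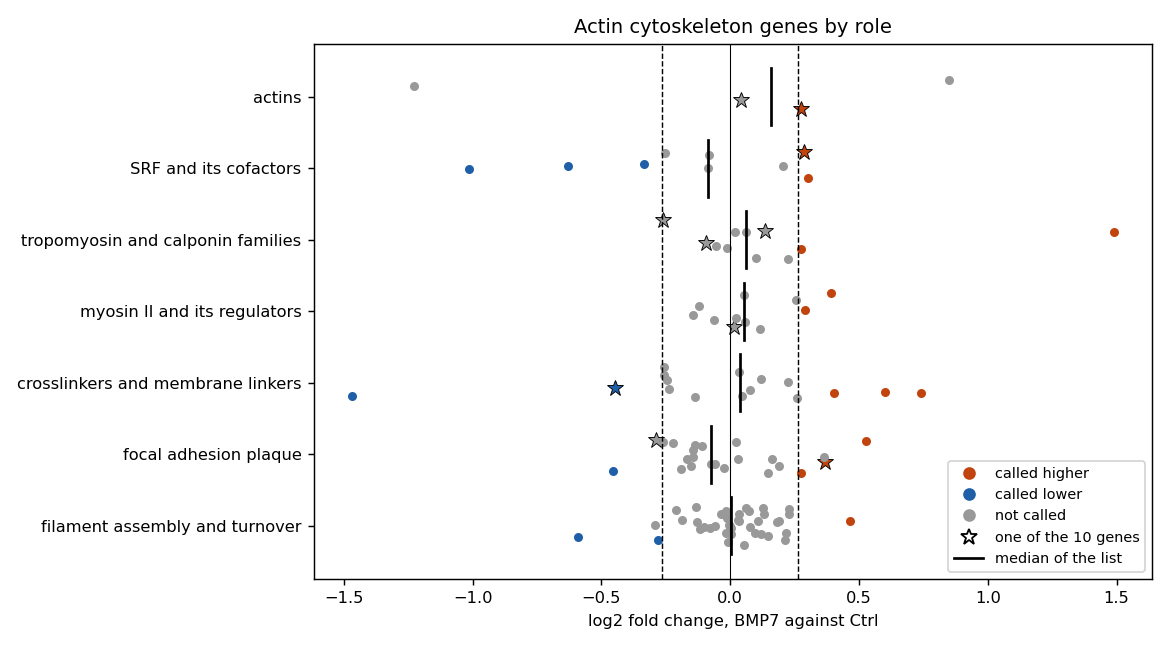
Log2 fold change, BMP7 against Ctrl (horizontal axis), of each tested gene of 7 actin cytoskeleton lists, with the 10 genes as stars, the calls in colour and the median of each list as a bar; dashed lines mark a fold of 1.2 and the vertical spread within a list carries no meaning. Medians lie between -0.09 (SRF and its cofactors) and 0.16 (actins), and the list of filament assembly and turnover, with 42 genes, holds 1 call on the higher and 2 on the lower side.

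Immediate-early genes, which SRF drives with the ternary complex factors, had calls in both directions. Of 9 tested, 2 were called higher and 3 lower, against 5.99% and 5.38% of all genes tested. Junb was at 92.3 to 100.2 CPM in the Ctrl and 234 to 278 CPM in the BMP7 libraries, a log2 fold change of 1.39 ± 0.07 (SE), and Fos had one of 0.54 ± 0.11 (SE). Egr2 fell by 1.01, Egr3 by 1.38 and Egr1 by 0.36 on the log2 scale, the last with overlapping groups. The Egr3 and Egr1 calls were each lost without any one of 4 of the 6 libraries. With BMP7 1 alone the calls of Egr2 (adjusted p = 0.0533), Egr3 (0.442) and Egr1 (0.256) were lost.

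The CArG letters did not sort the 9 members with a window by direction. Boxes with a mismatch or outside the window were not searched, so a member without the letters may still hold one. Of the 4 members with a box, Srf was called higher and Actg1, Vcl and Cnn2 were not called. Of the 5 without one, Zyx was called higher, Flna lower, and Tpm1, Tpm4 and Myh9 were not called. Among all 159 tested genes with a box in the window, 16 (10.1%) were called higher and 12 (7.55%) lower, against 6.32% and 5.99% of the 10413 tested genes with a promoter entry, and their median log2 fold change was 0.003. In the wider list 8 tested genes had a box, of which Rnd3, at 28.5 to 35.0 CPM in the Ctrl and 50.1 to 58.7 CPM in the BMP7 libraries, was called higher and Fhl2 lower.

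**Figure D5:**
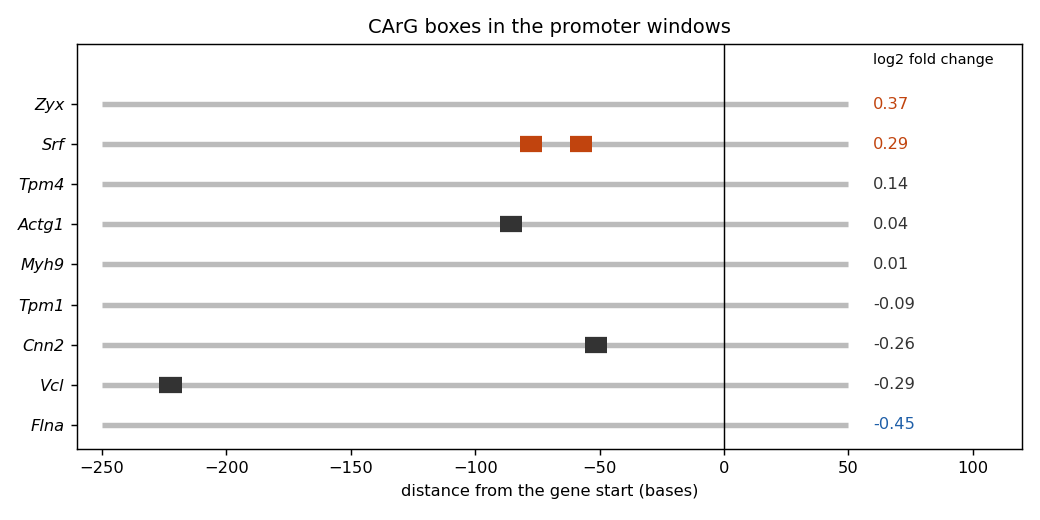
Positions of CArG boxes (coloured or dark blocks) in the promoter windows of 9 members, drawn to scale by distance from the gene start in bases, with the genes ordered by their log2 fold change, printed at the right. Boxes lie in Srf (2 boxes), Actg1, Cnn2 and Vcl, which span log2 fold changes from 0.29 to -0.29.

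Actb served as the internal control of quantitative PCR in the study's methods, so its level was set beside that of other reference genes. Of 16 such genes, 1 (6.25%) was called higher and 0 lower, against 5.99% and 5.38% of all genes tested. Their median log2 fold change was 0.03. The gene called was Gapdh, with a log2 fold change of 0.36 ± 0.09 (SE; adjusted p = 0.0161 in edgeR's test), a call lost without Ctrl 1, Ctrl 2 or BMP7 3, and with BMP7 1 alone (adjusted p = 0.134). Gapdh was at only 17.1 to 24.8 CPM here, and 88% of its transcript is matched by 81 other genes, and fragments that map to several places were not counted. The ratio of Actb to Gapdh overlapped between the groups (104 to 119, exact permutation p = 0.2), whereas the ratio of Actb to Eef1a1, a translation factor gene, was 0.358 to 0.402 in the Ctrl and 0.423 to 0.505 in the BMP7 libraries (exact permutation p = 0.1, the smallest possible).

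The other major filament system was looked at for comparison. Of 12 tubulin genes, 3 were called higher and 0 lower, against 5.99% and 5.38% of all genes tested. The median log2 fold change of the 12 was 0.12, with 11 above 0 and 1 below. The one below was Tubb5, which had the highest level of the 12. It was at 1362 to 1487 CPM in the Ctrl and 1187 to 1368 CPM in the BMP7 libraries. Its groups overlapped and it was not called (log2 fold change -0.16, adjusted p = 0.132 in edgeR's test). Tuba4a had a log2 fold change of 0.59 ± 0.07 (SE), Tubb2a of 0.44 ± 0.06 and Tuba1a of 0.36 ± 0.07. Of the Tubb2a transcript 83.8% is matched by 2 other genes, Tubb2b the closest, of Tuba1a 80.6% by 12 others, and Tuba4a shares 48.6% with Stk16.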

How the data were processed

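Poly(A) RNA of 6 libraries was sequenced as read pairs. The authors aligned them with subjunc (Subread 2.0.3, on mm10 by the methods), counted fragments per gene name with featureCounts (2.0.1 by the file header) on an annotation the header names mm39, and deposited the counts without normalization. Strand was not used, and fragments of several places or genes were left out. The deposited summed exon length, in bases, was used only for levels per kilobase.

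Libraries were grouped by the treatment in their labels. Counts were tested in R 4.3.3 with edgeR 4.0.16 (filter by expression, TMM, quasi-likelihood, 4 residual degrees of freedom), adjusted over the 15733 genes tested. Genes not tested held 0.132% of the counts. The SE was taken as the absolute log2 fold change over the root of F. Exact permutation tests were two-sided and not adjusted. The alternatives were DESeq2 1.42.0, RLE and upper-quartile scaling, other filters on low counts and thresholds, and glmTreat. Others left out libraries or set a block by column number, called the replicate block here. Added after seeing the data was a fit with the counts of processed copies added to Actg1 and Tpm4. With BMP7 1 alone, that library was assumed to vary as the Ctrl libraries do. The fits were first tested on simulated counts. Copies were searched with BLAST 2.17.0 in GENCODE vM21 transcripts (95% identity over at least 100 bases), and exon overlaps in the deposited annotation. A gene at no more than 3 counts in each library was read as at the floor.

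The members and lists were chosen with earlier results of these data known. Named are the members, all tested actins, SRF and its cofactors, up to 3 called genes per direction of each other list by size of change, Gapdh, any reference gene called, and Id1. Of the wider list, 1 group of genes is counted in the totals and not reported here by itself. Gm12715, Gm7809, Eef1a1, Tubb5, the marker genes and the neighbouring or copied genes are outside the rule and were picked once values had been seen. Replicates of a group differed by more than sampling noise (chi-square per degree of freedom 5.00 to 11.8).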

Additional observations from a re-analysis of the deposited data

How the results depend on the processing

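Zyx and Flna lost their calls with glmTreat and kept them in each of the 14 other alternative fits, and Actb and Srf in 9 and 10 of them. Of the 10 members the number called lower was 2 with DESeq2, with the adjusted p alone and with BMP7 1 alone, and 3 with upper-quartile scaling, without a filter and with the replicate block. Members called ranged from 1 to 3 higher and 1 to 2 lower on leaving out 1 library. Upper-quartile scaling took the Actb log2 fold change to 0.26, under the fold threshold, that of Myh9 to -0.0037, and the genes of the wider list called lower to 13. With the adjusted p alone the wider list held 22 higher and 15 lower calls. With glmTreat 0 members were called in either direction, 494 genes were called higher and 254 lower in all, and 4 and 3 in the wider list. On leaving out 1 library the Actb log2 fold change ranged from 0.23 to 0.33, all genes called lower from 563 (without Ctrl 2) to 902, that of Actg1 from -0.00051 (without Ctrl 2) to 0.091 and that of Myh9 from -0.0032 (without BMP7 1) to 0.047, with -0.0017 without Ctrl 1 and -2.08e-05 without BMP7 4. With BMP7 1 alone Acta1 was at -0.17. The cause of these changes was not tested.

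The column numbers 1 and 3 occur in both groups, and libraries with the same number did not deviate together (correlations of -0.01 and 0.12). With the replicate block the log2 fold change of Actb was 0.35 (adjusted p = 0.000322 in edgeR's test), that of Actg1 -0.021, and 1152 genes were called higher and 959 lower.

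Over the 46 other genes taken by the rule for named genes, 640 values under the alternatives held 559 that kept direction and call, 58 that lost the call, 16 that gained it and 7 that turned. Of the genes named, Acta2, Acta1, Lmod1 and Egr3 had the fewest counts, and counting error limits them most.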
